A study of Rattus norvegicus with 12 samples.

Results

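Cultures of hippocampal neurons that had recovered for 24 h after oxygen and glucose deprivation (OGD) were compared with control cultures of the same schedule across the genes of a whole-genome rat array. The 2 groups hold 6 of the 12 arrays of the series, 3 titled OGD 24h and 3 titled control 24h, and were taken by title alone. The cells came from Wistar rat embryos, of day E18 by the labels and up to a day older by the study's methods, and had been kept for 14 to 15 days in Neurobasal medium. For OGD they were held at 37 °C in an anaerobic chamber, in a saline buffer in which sucrose took the place of glucose, whereas control cultures stayed in a normal incubator in the same buffer with glucose. Both groups were then returned to conditioned medium for 24 h, so the exchange of medium and buffer is common to them. Each array carried the RNA of 1 culture, and the cultures were described as independent, with a minority of glial cells by the study's own estimate. The RNA is therefore that of a mixture, in which fewer cells of a type and less RNA per cell cannot be told apart.

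OGD imitates in a dish the loss of oxygen and glucose that the brain meets when its blood flow stops. Neurons run out of ATP, depolarize and release glutamate, calcium enters through glutamate receptors, and hippocampal neurons are known to die hours to days later. Cells that survive, glia among them, are known to switch on transcription factors of the AP-1 and NF-kB families, and with them chemokines, proteases of the plasminogen system, calcium-binding proteins and antioxidant enzymes, while injured neurons lower the genes of synaptic transmission.

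Signals are given as log2 intensity after the median of each array was set to 0, so a level of 3 lies 8 times above the median spot of that array, and a change is the mean of the 3 OGD arrays minus that of the 3 control arrays on this log2 scale, with its standard error. The OGD array of replicate 1 stood apart from the other 24 h arrays. Over the probes well above background on every 24 h array it correlated with them at 0.927 to 0.959, against 0.976 to 0.994 among the other 5, its median intensity was 131 units against 374 to 546, and its spike-in RNA read 12.56 on the log2 scale against 9.75 to 10.72, while 78.8% of its spots were well above background, near the 80.1% of the control array on its slide (83.6% to 87.1% on the others). The numbers of genes called in the lists below are therefore also given with this array left out. Each slide held the control and the OGD array of 1 replicate number, and the pair of replicate 1 was scanned 177 min apart, the other pairs together.

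Of 15154 named genes on the array, each read by its brightest probe, 12004 were well above background on all 3 arrays of at least 1 group and 11227 on all 6. At the study's thresholds, an unadjusted limma p under 0.05 and a change of at least 2-fold, 415 genes (2.74% of all) were higher and 360 (2.38%) lower after OGD. Without OGD replicate 1 these counts were 278 (1.83%) and 90 (0.594%). The numbers called in each list below are to be read beside these shares, and lists with few calls can lie near them. No probe passed after Benjamini-Hochberg adjustment over the 30367 probes in limma (smallest adjusted p = 0.209), although 4160 had an unadjusted p under 0.05, and the methods' t-test also gave 0 after adjustment, with 1923 unadjusted, while limma with array quality weights, which gave OGD replicate 1 a weight of 0.105, gave 598. In what follows, "rose" and "fell" are used of genes past the study's thresholds, none of which is a call after adjustment, and "did not pass" of the others. Values after ± are standard errors of limma's fit. Of the genes called higher, 121 were not well above background on all 3 arrays of either group, and 12 of those called lower. The split between directions depended on the scaling. Centring on the 75th percentile gave 488 higher and 254 lower genes. Scaling to the spike-in RNA, for which 1 probe could be used, moved the median of all genes to -1.05 and gave 7 and 307. That probe read 12.56 on OGD replicate 1, where the log2 median of the array was 6.23. On the other OGD arrays it read 10.52 and 9.75 beside medians of 7.46 and 7.90. In controls it read 10.24 to 10.72 beside 7.55 to 7.78. This scaling was not repeated without OGD replicate 1. All changes are therefore relative to the bulk of the array.

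A stricter set was kept for description. It holds the genes past both thresholds with all arrays and again without OGD replicate 1, in the same direction, and well above background on all 3 arrays of a group. Their adjusted p in limma ran from 0.209 to 0.36. These were 150 genes that rose (0.990% of all) and 38 that fell (0.251%), and they are called the retained genes below. The study's gene tables do not hold 100 of the 188. The 2 groups of arrays did not overlap in 142 of the 150 and in 35 of the 38, which the choice of genes by these same arrays largely fixes. Among all genes, all OGD arrays lay above all controls in 9.07% and below them in 7.56%. Slide 1 moved most. The median difference of the retained higher genes was 3.12 on the slide of replicate 1, 1.22 on that of replicate 2 and 1.11 on that of replicate 3, and that of the lower genes -2.49, -1.08 and -1.14. The control array of this slide shared in the gap, being the lowest control in 128 of the 150 higher genes and the highest control in 31 of the 38 lower ones. With both arrays of slide 1 left out, 66 of the higher and 13 of the lower genes were still past both thresholds. On those slides 1.02% and 0.488% of all genes were called higher and lower. Every one of the 188 kept its sign. The choice of members, which used the same arrays, in part fixes both the counts and the signs.

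**Figure D1:**
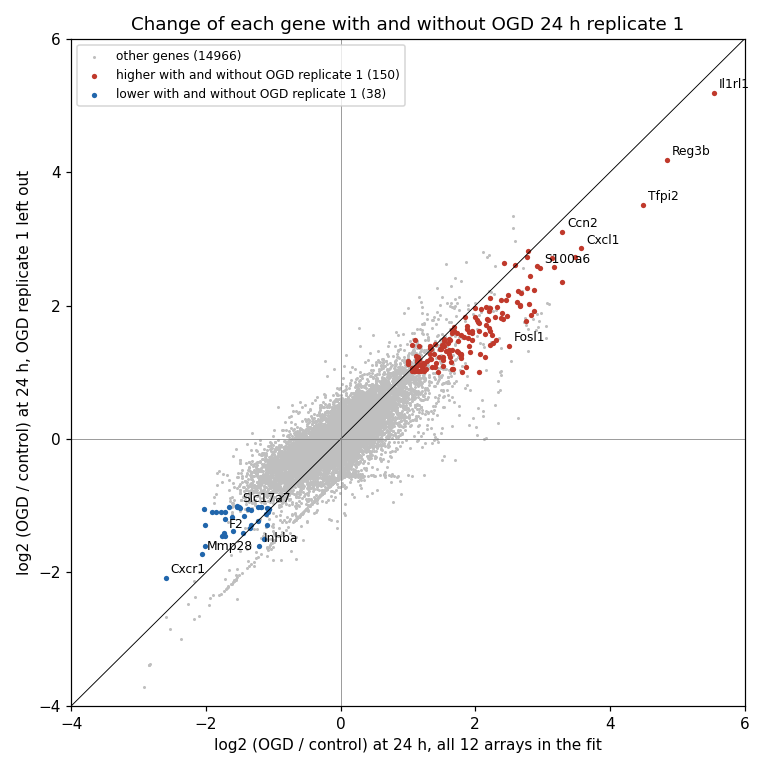
Each point is 1 of 15154 genes, with its log2 change after OGD at 24 h in the fit of all arrays on the horizontal axis and in the fit without OGD replicate 1 on the vertical axis, and the line marks equal values. The 150 genes retained as higher (red) and the 38 retained as lower (blue) lie mostly nearer to 0 on the vertical axis, from 5.19 for Il1rl1 to -2.08 for Cxcr1.

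The calcium-binding S100 proteins, the annexins and the galectins were the list with the most retained genes. Of 24 measured, 9 rose and 0 fell, against 2.74% and 2.38% of all genes, and the same 9 rose again without OGD replicate 1. The median change over the list was 0.89 with all arrays and 0.82 without that array, beside -0.03 and -0.01 over all genes. S100a6 (calcyclin) read -1.74, 0.09 and 0.68 on the control arrays of replicates 1 to 3 and 3.42, 2.15 and 2.33 on the OGD arrays. The lowest OGD array lay above the highest control array by more than 1 log2 unit, and the change was 2.96 ± 0.62. Anxa1, which codes for annexin A1, a phospholipid-binding protein known to restrain inflammation, had control levels of 2.47, 3.65 and 3.67 and OGD levels of 6.04, 4.73 and 5.63, a change of 2.20 ± 0.47. Its groups did not overlap either, with replicate 1 at both ends. Anxa2, the partner of S100a10 in a complex that binds plasminogen activators at the cell surface, went from 2.28, 3.72 and 4.44 to 6.61, 5.43 and 5.84 and changed by 2.48 ± 0.59. S100a10 itself changed by 1.52 ± 0.34 and S100a4 by 1.21 ± 0.38. S100a11 rose by 2.60 ± 0.78, but its control levels of -2.16, -0.45 and 1.06 were spread over 3 log2 units, and on slides 2 and 3 alone its change of 1.78 did not pass. Of the 9 genes that rose, 4 were past both thresholds on those slides alone. Galectin-1 (Lgals1) and galectin-3 (Lgals3), sugar-binding proteins of activated glia and macrophages, rose by 1.88 ± 0.51 and 2.06 ± 0.68, and Cd44, the receptor of hyaluronan, by 1.61 ± 0.36. The members that did not pass included S100b, the S100 protein of astrocytes, at 0.07, and Anxa5 at 0.33. S100a4 (0.69) was no longer called without control replicate 1. Values that kept their call but fell by over 1.5 times on the linear scale were Anxa2 (1.88), S100a11 (1.77), S100a6 (2.25) and Lgals3 (1.06) without control replicate 1.

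**Figure D2:**
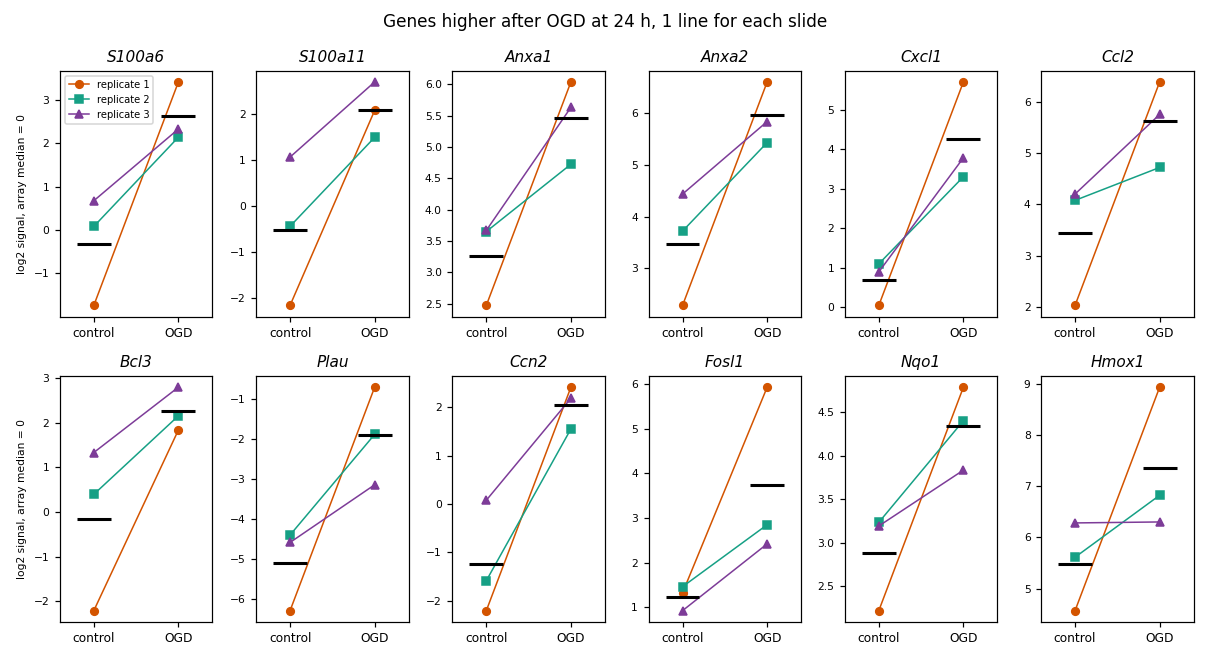
Normalised log2 signal (array median at 0) of 12 genes on the 3 control and 3 OGD arrays of 24 h, with 1 line for each slide and a bar at the mean of each group. In 11 of the 12 genes all 3 lines climb by more than 0.5, in Hmox1 the line of replicate 3 is flat (0.02), and the line of replicate 1 is the steepest in every panel.

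Chemokines rose as well. Of 30 chemokine and receptor genes measured, 9 rose and 0 fell (7 and 0 without OGD replicate 1), and the median change was 0.88 and 0.92 in turn. Only 14 of the 30 were well above background on all 6 arrays, and 5 of the 9 were retained, Cxcl1, Ccl2, Cxcl10, Cxcl16 and Ccr6. Cxcl1, a ligand of the neutrophil receptor Cxcr2, read 0.05, 1.1 and 0.90 on the control arrays and 5.70, 3.30 and 3.78 on the OGD arrays. All OGD arrays lay more than 2 log2 units above the highest control, and the change was 3.58 ± 0.58, and 2.54 on slides 2 and 3. Its adjusted p of 0.209 in limma was the smallest reached, which Il1rl1, F2, Cd93 and Gpx2 also had. Ccl2, which draws monocytes, went from 2.03, 4.08 and 4.20 to 6.38, 4.72 and 5.75. Its control array of replicate 1 was 2 units below the other controls, and the change of 2.18 ± 0.72 was 1.1 on slides 2 and 3, where it did not pass. Of the 5 retained, 2 were past both thresholds on those slides alone. Cxcl10, a ligand of the receptor Cxcr3 of T cells, rose by 2.92 ± 0.93 from -3.73, -2.76 and -1.83 to 0.78, -0.65 and 0.30, Cxcl16 by 1.18 ± 0.37 and the receptor Ccr6 by 1.95 ± 0.42. Cxcl10 and Ccr6 were well above background on 2 of the 3 control arrays. Cxcr1, another receptor of neutrophil chemokines and in no list, moved the other way and had the largest fall of all retained genes. It read -1.90, -0.72 and -3.34 in controls and -5.61, -4.53 and -3.61 after OGD, a change of -2.60 ± 0.64, with 1 OGD array not well above background and the arrays of replicate 3 only 0.26 apart. Ccl2 (1.48) was no longer called without control replicate 1. Values that kept their call but fell by over 1.5 times on the linear scale were Cxcr1 (-1.96) without control replicate 2, and Cxcl1 (2.86) without OGD replicate 1.

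Among 29 cytokine and receptor genes, 3 rose and 0 fell with all arrays and without OGD replicate 1, the median being 0.51 (0.41 without that array). Il1rl1, the receptor of interleukin-33, had the largest rise of the retained genes. In controls it was not well above background (-6.02, -4.92 and -4.57) and read 1.09, -0.16 and 0.21 after OGD, so it was at least 26.8-fold higher. Such a bound sets the OGD mean against the lowest signal called well above background on each control array. The interleukin-1 antagonist Il1rn rose by 1.13 ± 0.27, and Tnfrsf1b, a receptor of tumor necrosis factor, by 1.68 ± 0.61 with groups that overlapped and 1 control array not well above background. Il1b was not well above background on any of the 6 arrays and Il6 on 1 of them, so neither is given a change. Of 24 toll-like receptor and NF-kB genes, 5 rose and 0 fell, as many as without that array (median 0.47, 0.49). Ripk3, the kinase that starts necroptosis, read -3.08, -2.19 and -1.35 in controls and 0.82, -0.59 and 0.13 after OGD and rose by 2.32 ± 0.54. The adhesion molecule Icam1 rose by 1.54 ± 0.43 from 1.41, 2.32 and 2.91 to 3.83, 3.66 and 3.75. Bcl3, a nuclear partner of NF-kB, rose by 2.42 ± 0.87, with a control array of replicate 1 (-2.21) far below the other controls (0.40 and 1.33). Nfkbia, the inhibitor that NF-kB itself induces, was at 0.56 ± 0.22 and Tlr2 at -0.21 ± 0.47, neither past both thresholds. The calls lost with a single array were Bcl3 (1.40) and Tnfrsf1b (1.0) without control replicate 1, and Bcl3 (2.15), Il1rn (0.86) and Tnfrsf1b (1.40) without OGD replicate 3.

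Of 29 interferon-stimulated genes, Bst2 (1.20 ± 0.39) rose and Mx1 (-1.05 ± 0.39) fell, beside 2.74% and 2.38% of all genes. Mx1 was not retained (1 rose and 0 fell without OGD replicate 1). Ifitm1 (1.73 ± 0.56) and Ifitm2 (1.32 ± 0.52), of an interferon-induced family but outside the list, were retained as higher. Their fits with other single arrays left out are not given. The list had a median of 0.41, and Irf1 (0.54 ± 0.49) did not pass. In the prostaglandin list of 24 genes 2 rose and 2 fell, as many as without OGD replicate 1, and the cyclooxygenases went opposite ways. Ptgs1, the constitutive enzyme, read -2.10, -2.33 and -1.69 in controls and -0.22, -0.71 and -0.57 after OGD and rose by 1.54 ± 0.44, and Ptgr1, a reductase that breaks down prostaglandins and leukotriene B4, rose by 2.81 ± 0.67. Ptgs2, the inducible enzyme, read -0.53, -1.17 and -1.34 and -2.07, -2.31 and -1.88 and fell by 1.08 ± 0.25, with all OGD arrays below all controls. Of 27 complement and acute phase genes, 2 rose, and 4 without OGD replicate 1. The 2 were complement factor B (Cfb, 1.01 ± 0.35) and fibrinogen gamma (Fgg), the latter not well above background in controls and at least 1.69-fold higher. C3 read -2.42, -0.30 and -0.35 in controls and -1.60, 0.72 and 2.49 after OGD, an overlap set by OGD replicate 1, and its change of 1.56 ± 1.05 did not pass, whereas without that array it was 2.63 and passed. Lcn2 was at 1.09 ± 0.61. Calls that rested on 1 array were Bst2 (0.93), Cfb (0.98) and Ptgs2 (-0.84) without control replicate 1, Cfb (0.98) without control replicate 3, Mx1 (-0.90) without OGD replicate 1 and (-0.62) without control replicate 1, Ptgs2 (-0.97) without OGD replicate 2, and Cfb (0.69) without OGD replicate 3. Ptgr1 (2.19) was lower by over 1.5 times, though still called, without control replicate 1.

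The plasminogen system and its surroundings held some large changes. Of 20 genes of plasminogen activation and coagulation, 6 rose and 1 fell (5 and 1 without OGD replicate 1). Plau, Tfpi2, Procr and F2 were past both thresholds with all arrays, without OGD replicate 1 and on slides 2 and 3 alone. Plau, the urokinase that activates plasminogen, went from -6.29, -4.40 and -4.59 to -0.71, -1.89 and -3.15 (3.18 ± 0.62), with 1 control array not well above background. Plaur, the receptor of urokinase, rose by 1.60 ± 0.53 with all arrays. Tfpi2, an inhibitor of plasmin and tissue factor, was not well above background in controls (-5.94, -5.90 and -5.72) and read 0.61, -2.08 and -2.62 after OGD, at least 8.13-fold higher. Procr, the endothelial receptor of protein C, rose by 2.45 ± 0.60, again with 1 control array not well above background. Prothrombin (F2) fell. Its controls read 0.32, 0.71 and 0.31 and its OGD arrays -1.93, -1.13 and -0.79, with no overlap, and the change was -1.73 ± 0.28, and -1.47 on slides 2 and 3. Plaur (0.85) was no longer called without OGD replicate 1. Lower by over 1.5 times, though still called, were Plau (2.58) and Procr (1.77) without control replicate 1, and Plau (2.57) without OGD replicate 1.

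Matrix and protease genes moved in both directions. Of 30 metalloproteases and inhibitors, 4 rose and 3 fell (3 and 1 without OGD replicate 1). Adamts5, which cuts the proteoglycan aggrecan, read -1.74, -1.83 and -1.44 and -0.57, -0.76 and -0.21 and rose by 1.16 ± 0.35, and Adamts7 rose by 1.40 ± 0.33. Timp1, an inhibitor of metalloproteases, rose by 1.23 ± 0.38, with 1 OGD array saturated. Mmp28 read -0.12, -0.86 and -1.29 in controls and -3.46, -2.48 and -2.50 after OGD and fell by 2.05 ± 0.49, with 1 OGD array not well above background, and Mmp3 (stromelysin-1) at 1.55 ± 0.63 rose with all arrays. The 18 collagens had a median of 0.89, 0.91 without OGD replicate 1, but 2 of them rose, 0 without that array. In the list of neural matrix genes (26 measured, 4 rose and 1 fell, 2 and 0 without OGD replicate 1), periostin (Postn) read -3.65, -3.35 and -4.12 and 0.44, -1.30 and -1.65 and rose by 2.87 ± 0.51, fibronectin (Fn1) rose by 1.47 ± 0.43, and Hapln1, the link protein of perineuronal nets, fell by 1.27 ± 0.36. The median of this list was 0.24, and -0.03 with another background correction (normexp). Of 20 integrins 1 rose, also without OGD replicate 1, and 0 fell, beside 2.74% and 2.38% of all genes. It was Itga5, the fibronectin receptor subunit, at 1.84 ± 0.59 and with 1 control array not well above background. The calls lost with a single array were Timp1 (0.78) without control replicate 1, and Hapln1 (-0.96) and Mmp3 (1.05) without OGD replicate 1. Mmp3 passed only when all arrays or all but OGD replicate 2 were used. Values that kept their call but fell by over 1.5 times on the linear scale were Itga5 (1.1) without control replicate 1, and Postn (2.23) without OGD replicate 1.

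Genes of the actin cytoskeleton and of its SRF and YAP transcription programs, which answer to tension and to wounding, held 8 risers and 0 that fell among 32 measured (5 and 0 without OGD replicate 1), with a median of 0.70 (0.45 without OGD replicate 1). Ccn2 (connective tissue growth factor) read -2.21, -1.59 and 0.08 in controls and 2.42, 1.55 and 2.19 after OGD. The OGD levels were within 1 log2 unit of each other while controls spread over 2, and the change was 3.29 ± 0.77. Ccn1 rose by 1.66 ± 0.52, caldesmon (Cald1) by 1.34 ± 0.26, plectin (Plec) by 1.14 ± 0.35 and filamin C (Flnc) by 1.78 ± 0.58. The other probe of Cald1 was at 0.82. The smooth muscle genes of the list, Acta2 (-0.27) and Tagln (1.1), did not pass, and vimentin (Vim) was at 0.97. Among growth factors and receptors (36 measured, 6 rose and 1 fell, 3 and 0 without OGD replicate 1), the ephrin receptor Epha2 read -2.06, -1.07 and -1.07 and 2.61, 0.80 and 0.40 and rose by 2.67 ± 0.55, amphiregulin (Areg), a ligand of the EGF receptor, rose by 2.06 ± 0.73 and Vegfc by 1.11 ± 0.22. Hbegf, another EGF receptor ligand, rose by 1.53 ± 0.56 with all arrays. In the TGF-beta list of 36 measured, 3 rose and 2 fell (1 and 2 without OGD replicate 1), beside 2.74% and 2.38% of all genes. Tgfb1 rose by 1.57 ± 0.44 with 1 control array not well above background. Inhba, the activin A subunit, fell by 1.21 ± 0.47 from 3.13, 3.03 and 2.10 to 2.35, 0.56 and 1.74, with groups that overlapped. Calls that rested on 1 array were Inhba (-1.02), Plec (0.80), Vegfc (0.97) and Flnc (1.25) without control replicate 1, Inhba (-1.07) without control replicate 2, Areg (1.78) without control replicate 3, Hbegf (0.72) without OGD replicate 1, and Inhba (-0.71) without OGD replicate 2. Lower by over 1.5 times, though still called, were Areg (1.0), Ccn1 (1.04) and Epha2 (2.0) without OGD replicate 1.

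The injury list, genes that damaged peripheral neurons are known to raise, had 6 of 28 members that rose and 0 that fell (4 and 0 without OGD replicate 1), and a median of 0.39. Fosl1, an AP-1 subunit, read 1.32, 1.46 and 0.92 in controls and 5.93, 2.85 and 2.42 after OGD and rose by 2.50 ± 0.78. All OGD arrays were above all controls, and replicate 1 moved by far the most. The neuropeptide galanin (Gal) went from 0.61, 1.58 and 1.50 to 4.94, 2.61 and 3.54 (2.47 ± 0.59, and 2.48 by its other probe). Reg3b, a secreted lectin, was not well above background in controls and was at least 14.5-fold higher. Atf3 (0.61 ± 0.35) and Jun (0.13 ± 0.34) did not pass. Hmga1 and Hmga2, chromatin proteins of proliferating cells rose as well, 2 of 21 genes in the list of chromatin regulators with and without OGD replicate 1. Hmga1 read -0.02, 0.35 and 0.23 and 3.60, 1.45 and 0.93 (1.81 ± 0.56), and Hmga2 was at least 3.07-fold higher, being not well above background in controls. Rest, the repressor of neuronal genes, was at 0.68 ± 0.41 with all arrays and 0.10 without OGD replicate 1, and Hdac1 at 0.20 ± 0.17. Values that kept their call but fell by over 1.5 times on the linear scale were Fosl1 (1.40), Gal (1.85) and Hmga1 (1.01) without OGD replicate 1.

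Since an AP-1 subunit and partners of NF-kB were among the genes that rose, the promoters of the retained genes were searched for their motifs. RefSeq promoters of build GRCr8, 250 bases before and 50 after the start, were available for 117 of the 150 higher and 31 of the 38 lower genes. On either strand, the AP-1 motif TGANTCA was present in 17 of the 117 higher (14.5%) and 3 of the 31 lower genes (9.68%), beside 7.33% of all 27457 promoters. For NF-kB, the spelling GGGNNTTCC was in 6 and 3 (5.97% of all), and its form with 1 more T, counted apart, in 6 and 2 (1.51%). Other spellings were neither counted nor marked, such as gggaacttcc in Cxcl10 and gggaaattcc in Tfpi2 below. These shares therefore do not cover every possible NF-kB site. TGACGTCA, the motif of CREB, was in 2 and 2 (1.91%), and the antioxidant response element TGACNNNGC, which can overlap an AP-1 motif, in 16 and 5 (12.2%). These are counts of letters in a short window, with no binding measured. The 150 bases before the start given in the RefSeq table are shown for 6 retained genes that rose and that this text describes. They are 2 chemokines, 2 genes of the plasminogen and annexin groups, the necroptosis kinase and a marker of reactive astrocytes. All 6 hold a counted AP-1 or NF-kB motif, which most of the 117 do not, so they are not typical of the higher genes. Sequences run in gene orientation from 5′ to 3′, with the NF-kB (Cxcl1) or AP-1 (the other 5) letters in capitals. For Emp1 and Tfpi2 the table's start lies inside the gene's annotated span.
Cxcl1 (GRCr8 chr14:17479322-17479471, - strand): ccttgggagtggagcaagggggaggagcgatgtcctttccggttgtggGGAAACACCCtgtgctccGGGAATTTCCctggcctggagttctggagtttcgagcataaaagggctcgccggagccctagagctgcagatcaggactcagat
Cxcl10 (GRCr8 chr14:15988916-15989065, + strand): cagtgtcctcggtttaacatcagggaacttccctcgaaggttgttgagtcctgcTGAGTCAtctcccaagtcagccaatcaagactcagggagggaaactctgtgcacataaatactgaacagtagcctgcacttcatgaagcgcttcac
Tfpi2 (GRCr8 chr4:32941277-32941426, - strand): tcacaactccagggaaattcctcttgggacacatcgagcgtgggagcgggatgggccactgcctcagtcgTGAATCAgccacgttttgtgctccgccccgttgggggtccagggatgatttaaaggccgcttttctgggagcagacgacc
Anxa2 (GRCr8 chr8:78986102-78986251, + strand): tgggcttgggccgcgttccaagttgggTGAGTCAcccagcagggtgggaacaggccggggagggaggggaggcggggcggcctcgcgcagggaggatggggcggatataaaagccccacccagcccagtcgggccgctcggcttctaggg
Emp1 (GRCr8 chr4:169944080-169944229, + strand): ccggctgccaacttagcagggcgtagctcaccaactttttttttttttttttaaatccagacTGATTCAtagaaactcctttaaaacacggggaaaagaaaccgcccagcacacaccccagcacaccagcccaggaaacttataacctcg
Ripk3 (GRCr8 chr15:33262026-33262175, - strand): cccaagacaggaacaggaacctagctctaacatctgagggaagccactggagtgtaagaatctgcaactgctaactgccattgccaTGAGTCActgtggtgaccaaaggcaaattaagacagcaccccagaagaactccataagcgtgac

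Antioxidant genes under NRF2 rose in part. Of 35 measured, 4 rose and 0 fell, the same 4 without OGD replicate 1, and the median was 0.39 (0.24), but -0.01 with normexp. Nqo1, a quinone reductase, read 2.22, 3.23 and 3.19 in controls and 4.79, 4.40 and 3.83 after OGD, without overlap, and rose by 1.46 ± 0.31. Mgst2, a glutathione transferase of membranes, rose by 1.65 ± 0.31 and the aldo-keto reductase Akr1b8 by 2.41 ± 0.63. Heme oxygenase 1 (Hmox1) went from 4.57, 5.61 and 6.28 to 8.94, 6.83 and 6.30, where the arrays of replicate 3 were equal within 0.02, and it rose by 1.87 ± 0.64. Gclm (0.77), Txnrd1 (0.48) and Slc7a11 (0.31), enzymes and a carrier of glutathione and thioredoxin supply, did not pass. Hmox1 (1.41) was no longer called without control replicate 1. Values that kept their call but fell by over 1.5 times on the linear scale were Akr1b8 (1.81) and Hmox1 (1.08) without OGD replicate 1.

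Most other stress lists had median changes near that of all genes. None of 34 genes of the integrated stress and unfolded protein response passed (median -0.01, from -0.90 to 1.20), with Ddit3 at 0.08 ± 0.37 and Hspa5 at 0.32 ± 0.35. Of 25 chaperones 2 rose (1 without OGD replicate 1), Hspb8 (1.25 ± 0.48) and alpha B-crystallin (Cryab), which read 6.38, 6.07 and 6.18 and 9.89, 7.47 and 7.50 and rose by 2.08 ± 0.66 with 1 OGD array saturated, while Hspb1 at 1.19 ± 0.63 did not pass. Among 28 hypoxia-induced genes 2 rose (1 without OGD replicate 1), and 18 were below 0. The median of this list was -0.29 (-0.05 without that array), and -0.54, 0.04 and 0.08 by slide. Angptl4, an inhibitor of lipoprotein lipase, read 3.36, 3.11 and 3.31 and 6.48, 5.08 and 5.09 and rose by 2.29 ± 0.48, adrenomedullin (Adm) rose by 1.06 ± 0.40 with all arrays, and Vegfa (-1.0 ± 0.44) and Slc2a1 (0.18 ± 0.28) did not pass both thresholds. The 36 genes of apoptosis, necroptosis and calpains had a median of 0.05 with 2 that rose (1 without OGD replicate 1). These were calpain 1 (Capn1, 1.36 ± 0.44) and Casp1, which was not well above background in controls and at least 2.33-fold higher. Bcl2 (0.0 ± 0.23) was close to 0. The necroptosis kinase Ripk3, which rose by 2.32 ± 0.54, was counted with the toll-like receptor and NF-kB genes and not here. Of 17 p53 targets 1 rose (0 without OGD replicate 1), Gadd45a by 1.19 ± 0.31, and Cdkn1a was at -0.04 ± 0.24, and at 0.69 by its other probe. With normexp the medians of the stress response and chaperone lists both lay below 0, at -0.36, as did those of the apoptosis (-0.01) and cell cycle (-0.03) lists, the latter 0.20 as reported. In the list of 40 cell cycle genes 4 rose with all arrays, among them cyclin D1 (Ccnd1, 1.07 ± 0.33), and 0 without that array. No longer called with 1 array left out were Ccnd1 (0.73), Gadd45a (0.84), Adm (0.68) and Hspb8 (0.60) without OGD replicate 1. The same held for Ccnd1 (0.90) and Hspb8 (1.09) without control replicate 1 and Adm (0.90) without control replicate 2. Casp1 passed only when all arrays, all but control replicate 3 or all but OGD replicate 2 were used. Cryab (1.27) was lower by over 1.5 times, though still called, without OGD replicate 1.

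Among genes that every cell uses, none passed both thresholds in 5 lists. No gene passed among 85 subunits of the respiratory chain and ATP synthase (median -0.13), 38 proteasome subunits (-0.01), 31 lysosome and autophagy genes (-0.11) and 27 enzymes of glycolysis and the TCA cycle (-0.35), nor among 80 cytosolic ribosomal proteins. The median of the ribosomal proteins was 0.47 with all arrays and 0.02 without OGD replicate 1, and on the slides of replicates 1 to 3 it was 1.27, 0.30 and -0.13, and under quantile normalization it was 0.04. With normexp the medians were lower, at -0.55 for the respiratory chain, -0.45 for the proteasome, -0.35 for lysosome and autophagy, -0.73 for glycolysis and the TCA cycle and 0.05 for the ribosomal proteins, beside -0.03 over all genes. Gapdh was at 0.22 ± 0.23 by a probe saturated on 3 control and 2 OGD arrays, and its 2 other probes ran from -0.06 to 0.09. Cholesterol synthesis lay lower. Of 24 genes 9 fell and 0 rose (1 and 0 without OGD replicate 1), and the median was -0.80 (-0.55 without OGD replicate 1), but on the slide of replicate 3 it was -0.02. Sqle (-1.11 ± 0.38), a rate-limiting enzyme of the pathway, fell with all arrays, and Hmgcs1 (-0.57 ± 0.24) did not reach 2-fold. Sqle was no longer called without OGD replicate 1 (-0.72) or without control replicate 1 (-0.75).

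**Figure D3:**
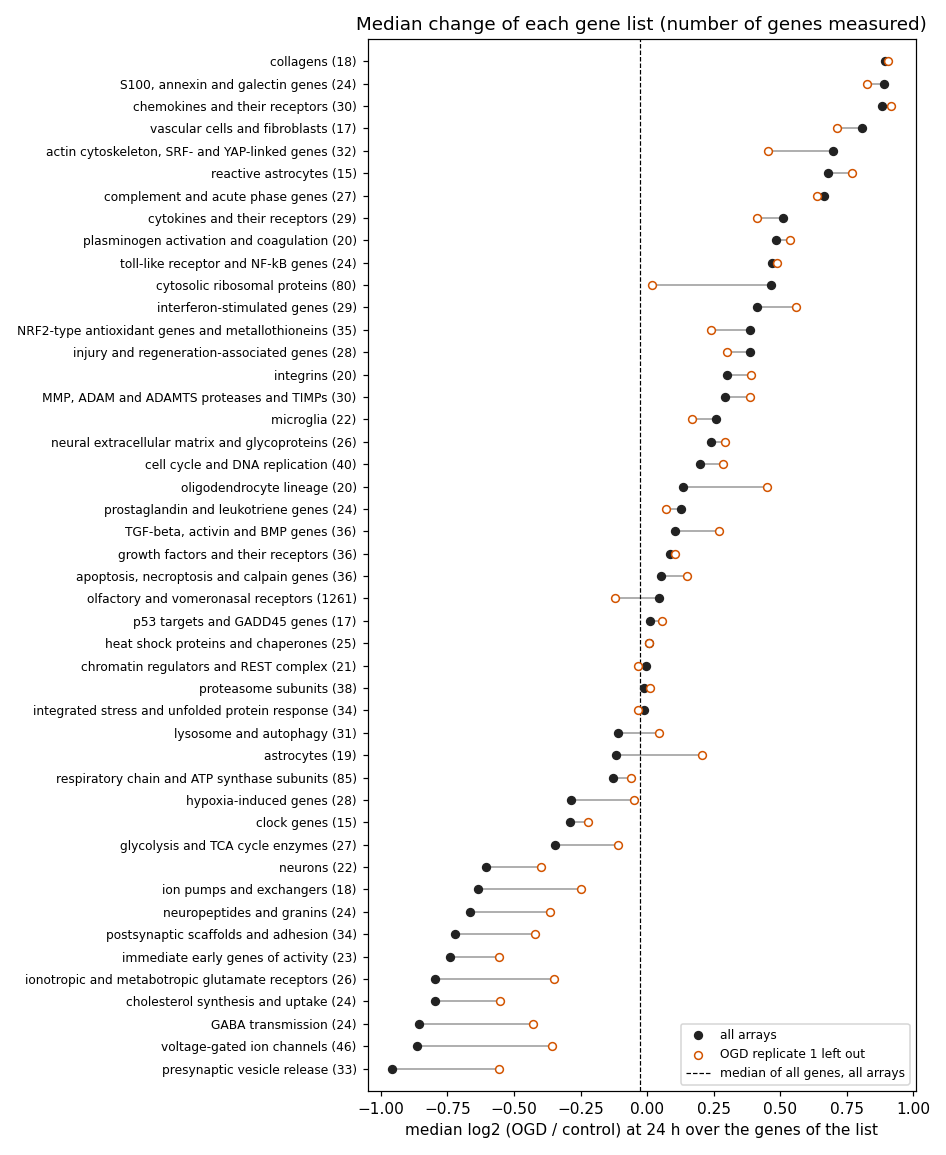
For each of 46 gene lists, the median log2 change at 24 h over its measured genes with all arrays (filled) and with OGD replicate 1 left out (open), the number of genes in brackets and the median of all genes as a dashed line. The lists of synaptic, channel and cholesterol genes lie lowest, down to -0.96 for presynaptic release, and move towards 0 without that array, the collagens, S100 proteins and chemokines lie at 0.88 to 0.89 with all arrays and at 0.82 to 0.92 without it, and the ribosomal proteins move from 0.47 to 0.02.

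Genes of synaptic transmission had, as groups, median changes below that of all genes. Presynaptic genes had the lowest median, -0.96, and 15 of 33 fell while 0 rose, against 2.64% called lower and 1.75% called higher among the 11227 genes well above background on all 6 arrays, as these 33 were. Without OGD replicate 1 the median was -0.56 and 2 genes fell, and by slide the median was -2.03, -0.52 and -0.37. These 2 were Slc17a7 and Dnm1. Slc17a7, the vesicular glutamate transporter VGLUT1 of excitatory neurons, read 2.04, 1.81 and 1.62 in controls and -0.74, 1.35 and 0.26 after OGD (-1.53 ± 0.45). All OGD arrays were below all controls, replicate 2 by less than 0.3. Dynamin 1 (Dnm1), which pinches off vesicles at the terminal, read 3.08, 3.01 and 2.88 and 0.47, 2.56 and 1.41 (-1.51 ± 0.45) with the same order of arrays. Synaptotagmin 1 (Syt1), the calcium sensor of release, fell by 1.18 ± 0.32. Snap25, a fusion protein of the release machinery, read 6.98, 6.82 and 6.41 and 3.54, 6.0 and 6.61. Its replicate 3 went up and its replicate 1 far down, and the change of -1.36 ± 0.63 did not pass. Syt1 (-0.94) was no longer called without OGD replicate 1.

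Of 26 glutamate receptor genes 5 fell (1 without OGD replicate 1), with a median of -0.79 (-0.35 without OGD replicate 1, and -1.70, -0.36 and -0.01 by slide). Grin2b, an NMDA receptor subunit, was retained and read 0.80, 0.46 and 0.60 in controls and -0.88, 0.01 and -0.81 after OGD (-1.18 ± 0.25), with no overlap. Grin1, the obligatory NMDA subunit, fell by 1.28 ± 0.37, and the AMPA subunit Gria1 changed by -1.06 ± 0.28. On the postsynaptic side 4 of 34 scaffold and adhesion genes fell, 2 without OGD replicate 1 (median -0.72, -0.42). The calsyntenins Clstn2 and Clstn3, cadherin-like proteins of the synaptic membrane, were the 2 retained. Clstn3 read 2.55, 2.34 and 2.15 and 0.30, 1.73 and 0.86 (-1.38 ± 0.34) and Clstn2 read -0.29, -0.43 and -0.35 and -1.86, -0.99 and -1.75 (-1.17 ± 0.28). The scaffold Dlg4 (PSD-95) was at -0.56 ± 0.17 and the kinase subunit Camk2a at -0.65 ± 0.23, both below 0 on all slides and short of 2-fold. Of 24 genes of GABA transmission 6 fell, 1 without OGD replicate 1, the median was -0.86 (-0.43), and by slide it was -1.82, -0.43 and -0.05. The 1 was the GABA A receptor subunit Gabra3 (-1.06, -1.63 and -1.20 in controls, -2.50, -2.28 and -2.37 after OGD, -1.09 ± 0.26). Gad1, which makes GABA, fell by 1.14 ± 0.47, and its other probe was at -0.57. The calls lost with a single array were Gabra3 (-0.97) without control replicate 1, and Gad1 (-0.57), Gria1 (-0.69) and Grin1 (-0.99) without OGD replicate 1, with Gad1 also lost without control replicate 1 (-0.85) or 2 (-1.18) and Gria1 without control replicate 3 (-0.97).

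**Figure D4:**
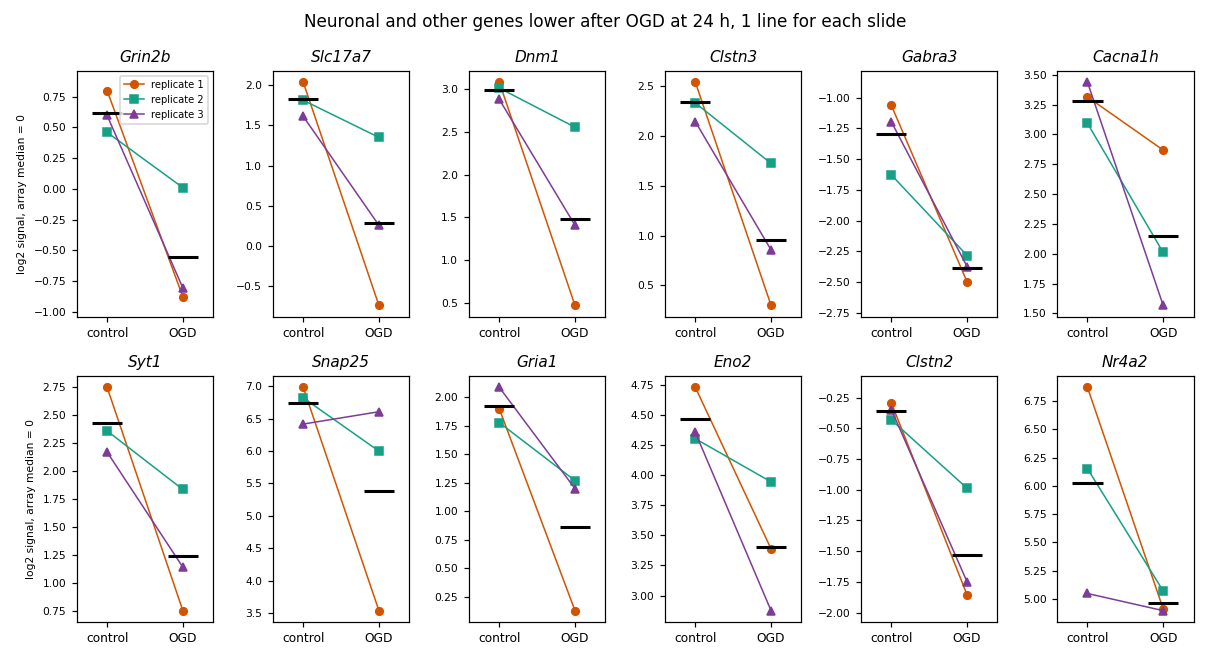
Normalised log2 signal (array median at 0) of 12 neuronal and other genes on the 3 control and 3 OGD arrays of 24 h, with 1 line for each slide and a bar at the mean of each group. Every line falls but that of replicate 3 for Snap25, the lines of replicate 2 are the flattest in most panels, and that of replicate 1 is the steepest in all but Cacna1h and Eno2.

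Of 46 voltage-gated channels 5 fell, 1 without OGD replicate 1 (median -0.87, -0.36). Cacna1h, a T-type calcium channel, read 3.31, 3.09 and 3.44 in controls and 2.87, 2.01 and 1.57 after OGD (-1.13 ± 0.42). Here replicates 2 and 3 moved more than replicate 1. Scn2a (-1.04 ± 0.64) and Kcnq3 (-0.96 ± 0.49) did not pass. Among 18 pumps and exchangers 3 fell, 0 without OGD replicate 1. The chloride exporter Slc12a5 fell by 1.19 ± 0.52 with all arrays, and its other probe was at -0.55. Likewise 7 of 24 neuropeptide and granin genes fell with all arrays, the neurotensin gene Nts (-1.61 ± 0.53) and chromogranin A (Chga, -1.12 ± 0.44) among them, 1 rose (Trh, 1.49 ± 0.56), and 0 passed without OGD replicate 1. Scg2 (-0.65 ± 0.26) and Penk (0.35 ± 0.45) did not pass both thresholds. Of 23 immediate early genes 5 fell and 1 rose (2 and 0 without OGD replicate 1). Rasgrp1, an exchange factor of Ras, read -2.42, -2.30 and -2.72 and -5.24, -3.85 and -3.50 and fell by 1.72 ± 0.41, with 1 OGD array not well above background. The orphan receptor Nr4a2 read 6.87, 6.15 and 5.05 and 4.91, 5.07 and 4.90 and fell by 1.07 ± 0.37, with replicate 3 differing by 0.15. Its relatives Nr4a1 (-1.04 ± 0.38) and Nr4a3 (-1.1 ± 0.38) fell with all arrays, as did Egr4 (-1.03 ± 0.34), and were not retained. Fos (-0.44 ± 0.24) and Arc (-1.14 ± 0.63) did not pass. No longer called with 1 array left out were Nr4a2 (-0.64) without control replicate 1, Cacna1h (-1.06) without control replicate 3, Slc12a5 (-0.46), Chga (-0.55), Egr4 (-0.87), Nr4a1 (-0.88), Nr4a3 (-0.85), Nts (-1.13) and Trh (1.08) without OGD replicate 1, Cacna1h (-1.06) without OGD replicate 2, and Cacna1h (-0.84) without OGD replicate 3. Without control replicate 1 the calls of Slc12a5 (-0.99), Chga (-0.88), Egr4 (-0.68), Nr4a1 (-0.63), Nr4a3 (-0.68), Nts (-1.31) and Trh (1.17) were lost too, without control replicates 2 and 3 that of Slc12a5 (-1.25 and -1.34), and without OGD replicate 2 those of Egr4 (-0.98) and Trh (1.33).

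The labels call the cells hippocampal neurons, and 21 of 22 neuron markers were well above background on all 6 arrays. All 22 were below 0 after OGD, from -1.58 to -0.05, 4 fell and 0 rose (1 and 0 without OGD replicate 1), and the median was -0.61 (-0.40). Neuronal enolase (Eno2) was retained and read 4.73, 4.30 and 4.35 in controls and 3.39, 3.94 and 2.88 after OGD (-1.06 ± 0.27), with no overlap. Map2 (-0.45 ± 0.20) and Rbfox3 (-0.59 ± 0.27) did not reach 2-fold. Summed over the list on the linear scale and put back on log2, the neuron markers stood at 10.39 to 10.80 in controls and 9.78, 10.48 and 10.32 after OGD. The lowest of these was OGD replicate 1, and the synaptic and channel lists were also lowest on that slide. What share of their change goes with the number of neurons was not tested. The calls lost with a single array were Eno2 (-0.93) without control replicate 1, and Eno2 (-0.80) without OGD replicate 3.

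Markers of other cells were present. Of 19 astrocyte markers, Gfap (-0.45 ± 0.45) and Aqp4 (-0.55 ± 0.47) among them, 18 were well above background on all 6 arrays, 0 rose and 1, Ppp1r3c, fell (0 and 0 without OGD replicate 1), and their median was -0.12 (0.21), and -0.49 with normexp. Their summed signal was 10.35 to 10.52 in controls and 10.20, 10.51 and 10.66 after OGD. In the list of reactive astrocytes (15 measured, 10 above background throughout), Emp1 and Tm4sf1 rose and Amigo2 fell, while 4 rose and 0 fell without OGD replicate 1. The median was 0.68 (0.77), with a sum of 5.27 to 5.76 in controls and 6.05, 6.11 and 6.89 after OGD. Tm4sf1, a tetraspanin-like membrane protein, read -0.52, 0.35 and 0.71 and 2.62, 1.97 and 2.62 and rose by 2.22 ± 0.42, and Emp1 read 1.40, 2.10 and 1.40 and 3.92, 3.02 and 2.91 (1.65 ± 0.37). Steap4 did not pass at 2.12 ± 1.08, and 0.74 by its other probe. Microglia markers (22 measured, 14 above background throughout) had 1 call, Spi1, which rose (0 without OGD replicate 1), and a median of 0.26 (0.17), with Cx3cr1 at 0.14 ± 0.27, Aif1 at 0.29 ± 0.21 by its brighter probe and 1.33 by the other, and a sum of 5.97 to 6.23 in controls and 6.03, 6.04 and 6.66 after OGD. No oligodendrocyte marker of 20 passed with all arrays or without OGD replicate 1 (sum 8.20 to 8.68 in controls and 8.59, 8.82 and 9.14 after OGD). Vascular and fibroblast markers (17 measured, 10 above background throughout) had 2 that rose with all arrays and without OGD replicate 1 and a median of 0.81 (0.71), with Pdgfrb, the receptor of pericytes and fibroblasts, retained at 1.34 ± 0.38. Their sum was spread widely in controls (4.94 to 7.13) and stood at 7.16, 7.03 and 7.88 after OGD. Several genes described above, Postn, Fn1, Ccn2, S100a6 and Anxa2 among them, are known to be strong in fibroblasts and astrocytes and weak in neurons. The part of cell numbers in their rise was not tested. Pdgfrb (0.97) was no longer called without control replicate 1. Amigo2 lost its call without OGD replicate 1 (-0.68) and without control replicates 1 and 2 (-1.49 and -1.81), and those of Ppp1r3c and Spi1 were each lost without any of 4 arrays (-1.17 to -0.49 and 1.61 to 2.38).

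Outside the study's gene tables, 98 retained genes moved the same way on all 3 slides, 78 up and 20 down. The 15 highest hold several already described (Anxa2, S100a11, Fosl1, Bcl3, Tm4sf1 and Ccl2). First stands Fxyd5, a regulator of the sodium pump and of cell adhesion, which read -4.47, -2.58 and -0.73 in controls and 0.28, -0.56 and 0.82 after OGD (2.77 ± 1.01). The lowest OGD array was just above the highest control. Lrrc15, a membrane protein of activated fibroblasts, rose by 2.69 ± 0.67 from -5.70, -3.27 and -3.77 to -0.57, -1.81 and -2.30. More even was Plp2, a membrane protein of the endoplasmic reticulum, which read -0.32, 0.21 and 1.0 and 3.71, 1.97 and 2.39 and rose by 2.39 ± 0.50, with 1.58 on slides 2 and 3. Perilipin 2 (Plin2), the coat protein of lipid droplets, rose by 2.22 ± 0.49 from 2.42, 3.09 and 3.32 to 6.36, 4.69 and 4.45, and on slides 2 and 3 by 1.36. Keratin 18 (Krt18), an intermediate filament of epithelia, rose by 2.27 ± 0.74, and Sh3rf2, a ubiquitin ligase, by 2.21 ± 0.71. Spmip7 (2.31 ± 0.58), Cst11 (2.24 ± 0.68) and Clca4l (2.21 ± 0.54) are genes named for sperm, cystatins and chloride channel accessory proteins, of which Cst11 was well above background on 1 control array and Clca4l on 2. Sh3rf2 was so on 1, and Fxyd5 and Lrrc15 on 2. No longer called with 1 array left out were Fxyd5 (1.84) without control replicate 1, and Fxyd5 (2.45) without OGD replicate 3. Values that kept their call but fell by over 1.5 times on the linear scale were Lrrc15 (1.96) without control replicate 1, and Cst11 (1.56), Krt18 (1.45), Plin2 (1.62), Sh3rf2 (1.41) and Spmip7 (1.49) without OGD replicate 1.

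The 15 lowest of these included neuronal genes beside those above. Sstr1, a somatostatin receptor, read 2.95, 2.08 and 1.85 in controls and -1.23, 0.69 and 1.71 after OGD (-1.90 ± 0.62). Its change was -0.14 on the slide of replicate 3 and -4.18 on that of replicate 1. Acetylcholinesterase (Ache) fell from 2.57, 2.10 and 1.57 to -0.84, 1.48 and 0.65 (-1.65 ± 0.50), Syt3, a calcium-binding synaptotagmin, from 1.83, 1.50 and 1.37 to -1.02, 0.98 and 0.14 (-1.53 ± 0.42), and Hpcal4, a neuronal calcium sensor, from 2.24, 1.66 and 1.26 to 0.47, 1.12 and -0.13 (-1.23 ± 0.36). Ankrd33b, an ankyrin repeat gene, read 1.88, 2.01 and 1.64 and -1.14, 0.72 and 0.79 (-1.72 ± 0.51) and was also past both thresholds on slides 2 and 3 (-1.07). The cation channel Trpc7 (-2.03 ± 0.70) and Arhgap25, a GTPase-activating protein of blood cells (-2.01 ± 0.65), fell with 1 OGD array not well above background. So did Lamp5, a LAMP family membrane protein of interneurons (-1.85 ± 0.52), Paep (-1.60 ± 0.37) and Trim29 (-1.43 ± 0.38). The protease Prss22 (-1.33 ± 0.45) fell with 2 such arrays. Spatc1l was not well above background on any OGD array and at least 1.68-fold lower, a call lost without control replicate 1 (-0.98). Trim29, Lamp5, Prss22, Spatc1l and Rasgrp1 turned to slightly above 0 under another background correction, as given with the processing alternatives. The calls lost with a single array were Hpcal4 (-0.97) and Prss22 (-0.82) without control replicate 1, Prss22 (-1.1) without OGD replicate 2, and Hpcal4 (-0.92) without OGD replicate 3. Lower by over 1.5 times, though still called, were Ache (-1.02), Ankrd33b (-1.09), Arhgap25 (-1.29), Lamp5 (-1.09), Sstr1 (-1.09) and Trpc7 (-1.04) without OGD replicate 1.

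Chemosensory receptors are not known for a role in hippocampal cultures. Of 1261 olfactory and vomeronasal receptor genes, 49 rose and 5 fell with all arrays (3.89% and 0.397%, beside 2.74% and 2.38% of all genes), and 29 and 20 without OGD replicate 1 (2.30% and 1.59%, beside 1.83% and 0.594%), and 194 were well above background on all 6 arrays. The median was 0.05, and 0.64, -0.34 and -0.14 by slide. Of the 7 retained as higher, Vom2r73 was at least 3.62-fold and Vom2r9 at least 1.78-fold higher, both being not well above background in controls, and Or51a25 read -4.0, -4.20 and -4.71 and -1.63, -3.76 and -1.68 (1.95 ± 0.54), with 2 control arrays not well above background. These families hold near-identical members that 1 probe may not tell apart. Clock genes (15 measured) had 1 call (0 without OGD replicate 1), Nfil3, which fell (-1.17 ± 0.29), with Per1 at -0.06 ± 0.17 and Nr1d1 at -0.15 ± 0.41. Of the 15, 13 were below 0. Their median was -0.29 (-0.22 without OGD replicate 1), and -0.73, -0.23 and 0.10 by slide. Nfil3 (-0.79) was no longer called without OGD replicate 1.

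The response at 24 h was set against that at 7 h, which has its own controls. Of the 150 genes retained as higher at 24 h, 146 were above 0 at 7 h and 66 were past both thresholds there (1.56% of all genes were called higher at 7 h), and of the 38 lower ones 32 were below 0 and 20 past both (2.07% of all). The difference between the 2 responses was tested as an interaction. No probe passed after adjustment (smallest adjusted p = 1.0 in limma), and 519 genes (3.42%) had an unadjusted p under 0.05, among them 11 of the higher and 6 of the lower retained genes. Cxcl1 was at 3.04 at 7 h and 3.58 at 24 h, Il1rl1 at 3.68 and 5.55, Gal at 3.10 and 2.47, differences of 0.54 ± 0.81, 1.87 ± 1.11 and -0.63 ± 0.83 that did not reach an unadjusted p under 0.05. With all arrays, the share of 3.42% of all genes is below the p threshold of 0.05 itself. Such a p alone therefore does not show that a gene differed between the times. The retained genes were also chosen by their 24 h values, which favours a larger change at 24 h. Those with an unadjusted interaction p under 0.05 are given for description, here and in what follows. Nqo1 went from 0.39 at 7 h to 1.46 at 24 h (difference 1.07 ± 0.44). Postn went from 1.19 to 2.87 (difference 1.69 ± 0.72) and Pdgfrb from -0.10 to 1.34 (difference 1.44 ± 0.54). Those retained as lower with such a p were all above 0 at 7 h, which their choice by low values at 24 h favours. Ptgs2 was at 0.51 and -1.08 (difference -1.59 ± 0.36), Inhba at 0.42 and -1.21 (difference -1.63 ± 0.66), Cacna1h at 0.27 and -1.13 (difference -1.40 ± 0.59), and Nr4a2, Spatc1l and Prss22 followed the same order. Leaving out OGD 24 h replicate 1 raised the probes with an unadjusted interaction p under 0.05 from 1086 to 2907.

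**Figure D5:**
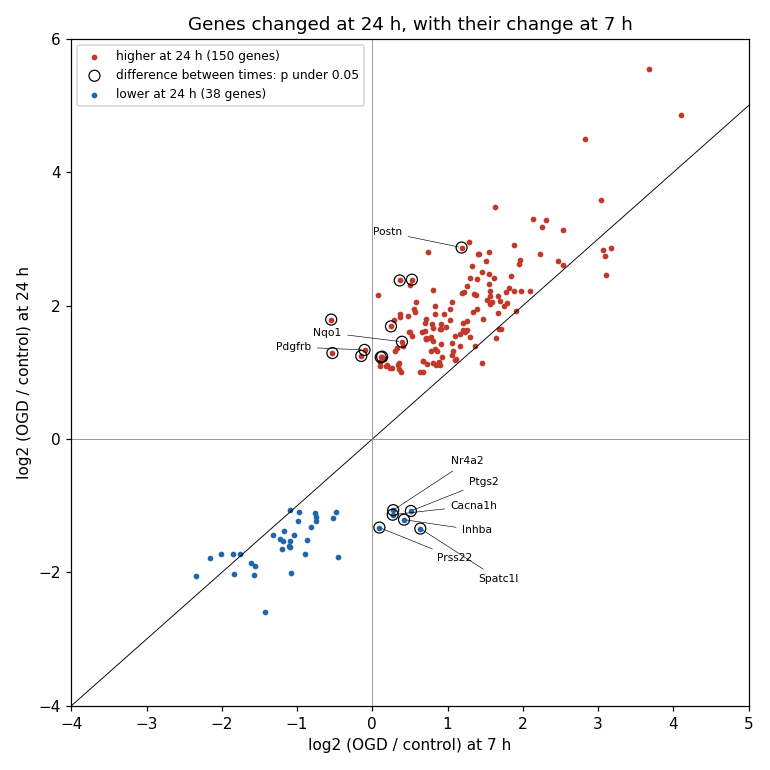
Log2 change after OGD at 7 h (horizontal) and at 24 h (vertical) of the 150 genes retained as higher (red) and the 38 as lower (blue) at 24 h, with the line of equal values. Circles mark an unadjusted interaction p under 0.05, and the 6 circled lower genes lie right of 0, at 7 h values of 0.09 to 0.64.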

How the data were processed

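RNA of hippocampal cultures was hybridised, 1 culture to each array and labelled with Cy3, to 12 Agilent 4x44K rat arrays (3 control and 3 OGD cultures at each of 2 recovery times). Per the file headers, Feature Extraction subtracted background and detrended the spots, and the deposited files hold these processed signals as intensity values with no scaling between arrays. The series table holds log2 values of the same signals, which the authors centred on the median of each array around a common level above 0, and it served as an alternative. The deposited files gave no mean signal, so the alternative background correction (normexp, offset 50) used the median signal.

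Log2 processed signals of the non-control spots were averaged over the spots of a probe, outlier flags left out, and the median of each array was subtracted, which gave 30367 probes. Differences between groups were fitted in R 4.3.3 by limma 3.58.1 (lmFit and eBayes, 4 group means, 12 arrays, Benjamini-Hochberg adjustment over all probes), and the difference between the 24 h and 7 h responses as an interaction. Genes were called at the study's thresholds. The code was tested on simulated data.

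Probes were named by matching their accessions to RefSeq genes of build GRCr8. 12363 probes have no name here. A gene was read by its probe with the highest mean signal over the 12 arrays. The text names, outside the study's tables, the 15 highest and 15 lowest retained genes that moved the same way on all 3 slides, in each list up to 4 retained members in each direction, and the first 2 members of each list. Other genes were chosen after their values were seen, and a few that the rule names are not reported here. The lists and the comparison were chosen with earlier results of these data known. The number of arrays, 3 in each group, limits the precision, and the median standard error of a change was 0.298 (log2).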

Additional observations from a re-analysis of the deposited data

Results flagged for a closer look

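Of the genes named by the rule, 5 moved one way on all 3 slides at 24 h and the other way on all 3 slides at 7 h, and 2 of these were past both thresholds at 24 h. Nr4a2, a nuclear receptor induced by neuronal activity, changed after OGD by -1.96, -1.08 and -0.15 at 24 h on the slides of replicates 1 to 3 and by 0.31, 0.37 and 0.16 at 7 h, a difference between the responses of -1.34 ± 0.53. Spatc1l was at -2.09, -1.12 and -0.81 at 24 h and at 0.76, 0.29 and 0.87 at 7 h, a difference of -1.98 ± 0.49, and it was not well above background on the OGD arrays of 24 h. Both had an unadjusted interaction p under 0.05 in limma and an adjusted p that rounds to 1. The others did not pass at 24 h. Map2 was at -0.63, -0.64 and -0.070 and at 0.36, 0.34 and 0.093 (difference -0.71 ± 0.28), Hmgcs1, a cholesterol synthesis enzyme, at -1.26, -0.41 and -0.042 and at 0.49, 0.30 and 0.075 (difference -0.86 ± 0.35), both with such a p, and the integrin gene Itga10 at 0.18, 0.0053 and 0.57 and at -0.074, -0.081 and -0.65 (difference 0.52 ± 0.33), without one.

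A spike-in probe outside the comparison, the 1 of 10 that was within range on every array, read 12.56 (log2 intensity) on OGD 24 h replicate 1, against 10.24, 10.27 and 10.72 on the control arrays and 10.52 and 9.75 on the other OGD arrays of 24 h. Scaling to this probe, with that array included, gave 7 genes higher and 307 lower, as listed with the processing alternatives. The cause of its reading on that array was not tested.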

How the results depend on the processing

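Counts are given as genes higher, genes lower and probes with an unadjusted p under 0.05 at 24 h (415, 360 and 4160 as reported), and for the interaction as probes with such a p (1086). They were 488, 254 and 4167 (946) with the 75th percentile, 303, 351 and 4632 (1177) with quantile normalization, 82, 389 and 1477 (64) with normexp, 7, 307 and 538 (27) with the spike-in, and 315, 336 and 3918 (799) with a floor of 10 units. On probes well above background in either group they were 304, 376 and 3985, and on all 6 arrays 211, 328 and 3601. The methods' t-test gave 224, 51 and 1923, limma on the 24 h arrays alone 439, 188 and 2574, array quality weights 411, 212 and 6033 (5024), and the slides of replicates 2 and 3 alone 154, 74 and 1549. Adjusted calls were 0 in all of these but normexp (1), the weights (598) and the 2 slides (2). Leaving out each array gave 278 to 610 higher and 90 to 943 lower genes, 2087 to 6470 probes at 24 h, 767 to 2907 for the interaction, and 0 to 2 adjusted calls. The lowest counts were 278 and 90 without OGD 24 h replicate 1 and 279 and 142 without control 24 h replicate 1, the highest 610 and 691 without OGD replicate 2 and 572 and 943 without OGD replicate 3. Of the named genes, Cfb turned to -0.020 with the spike-in, and with normexp Lamp5 (0.00028), Prss22 (0.20), Rasgrp1 (0.099), Spatc1l (0.26) and Trim29 (0.26) turned to above 0. The cause was not tested.

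Arrays with the same number share a slide, and the labels give no other link. Their deviations from the group means correlated at -0.12, 0.17 and -0.19, so the numbers were not taken to pair the cultures. With the slide as a replicate block the counts were 455, 259 and 3686 (1201) with 0 adjusted calls.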

Other observations

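Of the 12363 probes without a gene name, 636 were called higher and 161 lower at 24 h, and 206 and 13 met the same conditions as the retained genes. Without a gene they were left undescribed.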
